A study of Danio rerio with 12 samples.

Results

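The levels of 10 genes of iron handling and the acute phase response were followed through zebrafish liver: saa, hamp, tfa, hp, hpx, fth1a, slc40a1, tfr1a, tfr1b and tfr2. They were found by their gene name in a count table of 34028 genes. The 10 names matched 11 rows, because the name hp stands on 2 rows. The row on chromosome 7 carries trypsin-like protease domains and the reference symbol hp, and is called hp here. The row on chromosome 8 carries a beta-microseminoprotein domain and the reference symbol msmbl, so it is called msmbl here and is not read as haptoglobin. All 11 rows passed the filter on low counts.

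The liver is the main source of the proteins that carry iron and its by-products in blood. Transferrin binds iron in plasma, haptoglobin binds free haemoglobin and hemopexin binds free haem. Cells take up transferrin through transferrin receptors, store iron in ferritin and release it through ferroportin. Hepcidin, a liver peptide, makes ferroportin leave the cell surface and so holds iron inside cells. Inflammation is known to raise hepcidin, haptoglobin and serum amyloid A in vertebrate liver, while iron load and bone morphogenetic proteins raise hepcidin by another route.

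RNA came from zebrafish livers, and all 4 groups share a transgenic line and an age of 3 months. There were 4 groups of 3 libraries each. DMSO was the solvent control, TDCIPP fish received the organophosphate flame retardant tris(1,3-dichloro-2-propyl)phosphate, DOX fish received an agent that the labels do not spell out, and TDCIPP+DOX fish received both. Doses, durations, sex and the promoter of the transgene were not given in the sources used here. Whether each library is its own fish is also not stated, so the p-values measure only how libraries differ, and part of that spread may be technical. Libraries are named by group and replicate number, so that TDCIPP 1 is replicate 1 of TDCIPP. Each held 28621536 to 40877342 reads assigned to genes.

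The livers carried their defining markers: all 12 hepatocyte markers had reads, with a sum of 32665 to 65823 CPM (reads of a gene scaled to a common library size). Some libraries also held transcripts of other organs. Oocyte markers summed to 1672 CPM in DOX 3 and to 9.34 to 181 CPM in the other 11 libraries. The 10 intestine marker rows summed to 524 to 753 CPM in DMSO, 520 to 678 CPM in TDCIPP, 140 to 240 CPM in DOX and 170 to 1326 CPM in TDCIPP+DOX. They did not move as one. The intestinal fatty acid binding protein fabp2 stood at 55.7 CPM in DMSO 3, 46.8 CPM in TDCIPP 1 and 106 CPM in TDCIPP+DOX 3, against at most 8.73 CPM elsewhere. In contrast, apoa4b.1 was at 503 to 561 CPM in DMSO and TDCIPP and at 136 to 314 CPM in the groups with DOX. The pdx1 level was highest in DMSO 2, and fabp6 was near 0 throughout. The 9 exocrine pancreas marker rows summed to 51.4 CPM in DOX 3, 2387 CPM in DMSO 3, 1389 CPM in TDCIPP+DOX 1 and 141 to 1046 CPM in the other 9 libraries. DOX 3 also stood apart over all genes: log2 CPM correlated at r = 0.818 with DOX 1 and 0.811 with DOX 2, and at 0.944 between DOX 1 and DOX 2. In bulk tissue, fewer cells of a type and less RNA per cell cannot be told apart.

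The positions are those of the deposited table, in a build not given in the sources used here. Gene saa (ENSDARG00000045999) spans bases 12950507 to 12956434 of chromosome 7 and fth1a (ENSDARG00000015551) spans bases 12927944 to 12936708 of the same chromosome, both on the plus strand. These 2 genes are neighbours, with 13798 bases and 0 other gene starts between them. The hp gene (ENSDARG00000051890) lies farther along chromosome 7, at bases 56577522 to 56585738. Chromosome 9 holds hpx (ENSDARG00000012609) at bases 32840114 to 32847642 and slc40a1 (ENSDARG00000000241) at bases 41103127 to 41113878. Chromosome 2 holds tfa (ENSDARG00000016771) at bases 16780643 to 16794710 and tfr1a (ENSDARG00000101322) at bases 4849269 to 4874966. The other members are hamp (ENSDARG00000102175) at bases 50289916 to 50292583 of chromosome 16, tfr2 (ENSDARG00000103727) at bases 44940700 to 44965582 of chromosome 23, and tfr1b (ENSDARG00000077372) at bases 26017094 to 26031204 of chromosome 24. The msmbl row (ENSDARG00000095807) spans bases 50143194 to 50147948 of chromosome 8.

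The levels showed 3 patterns, which leave out tfr1a and tfr1b. In TDCIPP 1, and less so in TDCIPP+DOX 1, the inflammation markers saa and hp were far above every other library, with hamp also highest in TDCIPP 1. In TDCIPP+DOX, the iron exporter gene slc40a1 and the receptor gene tfr2 were higher in all 3 libraries than in any DMSO or DOX library, and hpx was lower than in any DMSO or TDCIPP library. The carrier tfa, the ferritin gene fth1a and msmbl spanned 2.80-fold or less over the 12 libraries, a range that tfr2 also kept to (2.53-fold). None of the 11 rows passed the test in any comparison: edgeR's quasi-likelihood test with Benjamini-Hochberg adjustment over all 19160 tested genes called 0 of 11 for TDCIPP against DMSO, where 0.0418% of all genes were called. It called 0 of 11 for DOX against DMSO, where 6.86% of all genes were called, and 0 of 11 for TDCIPP+DOX against DOX, where 2.1% were called. It also called 0 of 11 for TDCIPP+DOX against DMSO and for TDCIPP+DOX against TDCIPP, where 11.7% and 4.18% of all genes were called. The interaction asks whether TDCIPP acts differently with and without DOX, as the difference between TDCIPP+DOX and DOX minus that between TDCIPP and DMSO. There 0 of 11 were called, against 0.0261% of all genes.

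Without adjustment, edgeR gave a p below 0.05 to 3 members in TDCIPP against DMSO, all higher, where 10% of all genes had such a p. The numbers were 0 members in DOX against DMSO (26.6% of all genes), 3 in TDCIPP+DOX against DOX (24.4%), 4 in TDCIPP+DOX against DMSO (27.1%), 2 in TDCIPP+DOX against TDCIPP (17.9%) and 1 in the interaction (12.8%). DESeq2 called hamp in TDCIPP against DMSO (adjusted p = 0.005491), where it called 2.19% of all genes. It also called hpx in TDCIPP+DOX against DMSO (adjusted p = 0.02161, with 18.2% of all genes called) and against TDCIPP (adjusted p = 0.04176, with 8.75%). It gave no adjusted p for saa and hp, and it called 0 members in DOX against DMSO, in TDCIPP+DOX against DOX and in the interaction, where it called 14%, 11.1% and 1.48% of all genes.

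**Figure D1:**
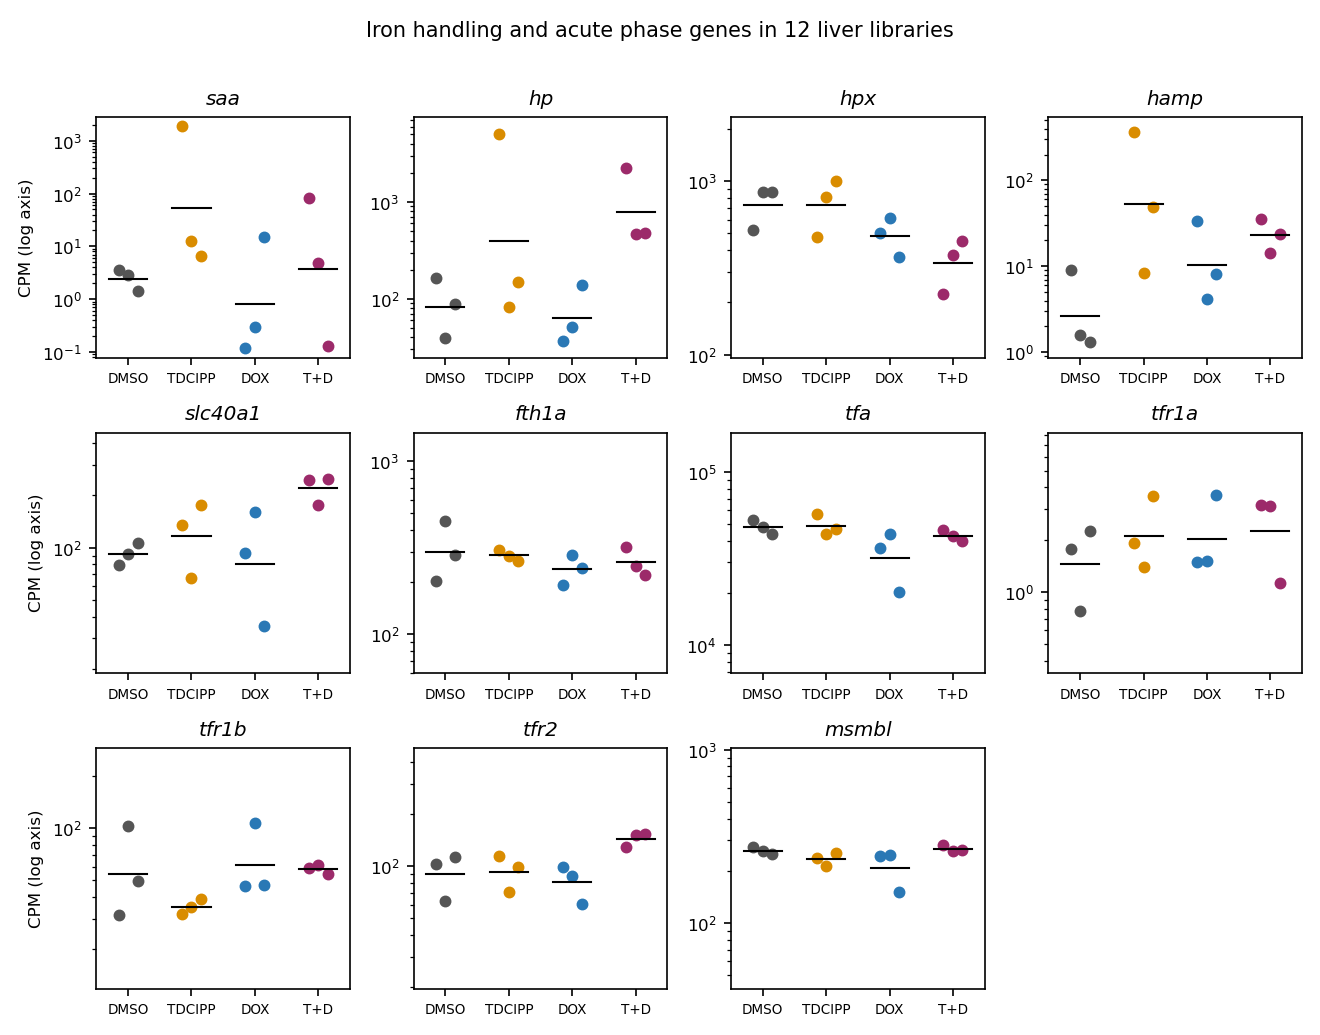
Level of each of the 11 genes in the 12 libraries, in TMM-scaled CPM on a log axis that differs between panels; points are libraries, black bars the geometric mean of 3, and T+D is TDCIPP+DOX. A TDCIPP library at 1874 CPM stands alone for saa, the TDCIPP+DOX points of tfr2 lie above all others, and tfa and msmbl vary little outside DOX 3.

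Serum amyloid A, a small lipoprotein-bound protein and a classic marker of acute inflammation, varied most. The saa level was 3.49, 2.81 and 1.43 CPM in DMSO, and 1874, 12.5 and 6.46 CPM in TDCIPP. It was 0.117, 0.292 and 14.9 CPM in DOX, and 81.2, 4.87 and 0.129 CPM in TDCIPP+DOX. TDCIPP 1 was thus highest, 23.1 times the next library, TDCIPP+DOX 1, while the lowest values, in DOX 1 and TDCIPP+DOX 3, rested on 4 and 6 reads.

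All 3 TDCIPP libraries were above the 3 DMSO libraries for saa, the only member of which that was true, where 10.4% of all genes had every TDCIPP library higher; 0 members had every TDCIPP library lower, where 8.95% of all genes did. The fitted log2 fold change was 7.93 (SE 2.88, 95% confidence interval 1.61 to 14.3, edgeR adjusted p = 0.3665). Without TDCIPP 1 it was 1.87 (edgeR adjusted p = 0.8351), so the size of the difference rested on that library. TDCIPP 1 is among the libraries with intestinal transcripts, as are DMSO 3 and TDCIPP+DOX 3, where saa was at 1.43 and 0.129 CPM. In TDCIPP+DOX 1, with the second highest saa, the intestine markers vil1 and chia.2 were at 5.69 and 7.87 CPM. These levels were below those libraries and above all others, while fabp2 there was at 3.55 CPM, within the range of the others. The part of other organs in the saa levels was not tested. Between TDCIPP+DOX and DMSO the groups overlapped, with a log2 fold change of 3.48 (SE 2.37, adjusted p = 0.3889 by edgeR), and of -0.04 without TDCIPP+DOX 1. For DOX against DMSO it was 0.995 (SE 2.205, adjusted p = 0.805 by edgeR), and it was -3.66 (adjusted p = 0.496) without DOX 3, the library with oocyte transcripts.

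Haptoglobin gave the same 2 libraries as highest. The hp level was 165, 39.4 and 88.8 CPM in DMSO, and 5028, 82.2 and 149 CPM in TDCIPP. In DOX it was 37.1, 50.7 and 138 CPM, and in TDCIPP+DOX 2232, 470.3 and 481 CPM. The 3 TDCIPP+DOX libraries were higher than every DMSO and every DOX library, while 2 of the 3 TDCIPP libraries lay within the DMSO range.

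The log2 fold change of hp was 3.44 for TDCIPP+DOX against DMSO (SE 1.38, 10.9-fold, interval 0.40 to 6.48), with an edgeR adjusted p of 0.1334. That p was 0.02349 without TDCIPP 1, a library of neither group that enters the shared estimate of the spread. It was 0.3845 without TDCIPP+DOX 1, when the log2 fold change was 2.28. Against DOX it was 3.82 (SE 1.41, 14.1-fold, interval 0.73 to 6.91, edgeR adjusted p = 0.14). For TDCIPP against DMSO it was 4.16 (SE 1.43, interval 1.02 to 7.30, edgeR adjusted p = 0.3439), and 0.24 without TDCIPP 1. Between TDCIPP+DOX and TDCIPP the value was -0.72 (SE 1.26, edgeR adjusted p = 0.8403), and 3.20 (adjusted p = 0.1075) without TDCIPP 1, so its sign turned on that library.

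Hemopexin did not follow haptoglobin. The hpx row, whose reference symbol is hpxa, stood at 526, 873 and 864 CPM in DMSO, and at 479, 810 and 1011 CPM in TDCIPP. It stood at 504, 616 and 365 CPM in DOX, and at 223, 375 and 454 CPM in TDCIPP+DOX. Every TDCIPP+DOX library was below every DMSO and every TDCIPP library, and the lowest of all was TDCIPP+DOX 1, where saa and hp were the second highest.

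For hpx the log2 fold change was -1.11 for TDCIPP+DOX against DMSO (SE 0.35, 2.15-fold lower, interval -1.88 to -0.33), with an edgeR adjusted p of 0.06718, the lowest of any member in that comparison. Against TDCIPP it was -1.13 (SE 0.36, interval -1.91 to -0.35, edgeR adjusted p = 0.1098). Against DOX it was -0.50 (SE 0.35, adjusted p = 0.393 by edgeR), and DOX against DMSO gave -0.61 (SE 0.35, adjusted p = 0.2851 by edgeR) with overlapping groups. Leaving out each library in turn gave values from -1.33 to -0.86 against DMSO, with an adjusted p below 0.05 in 1 of 12 fits, the fit without DOX 3 (0.04743).

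The hemopexin paralog, listed in the table as zgc:152945 with the reference symbol hpxb (ENSDARG00000051912, bases 2394193 to 2414063 of chromosome 16), shared its highest libraries with haptoglobin. Its level was 174, 109 and 120.2 CPM in DMSO, 4296, 187 and 908 CPM in TDCIPP, 266, 134 and 136 CPM in DOX, and 1939, 266 and 157 CPM in TDCIPP+DOX. TDCIPP 1 and TDCIPP+DOX 1 were highest, as for saa and hp. The other libraries differed from hp in places: TDCIPP 3 was far above DMSO for the paralog and within the DMSO range for hp, while TDCIPP+DOX 3 was within the DMSO range for the paralog and above it for hp. The paralog was chosen after its values were seen, so no test is given.

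**Figure D2:**
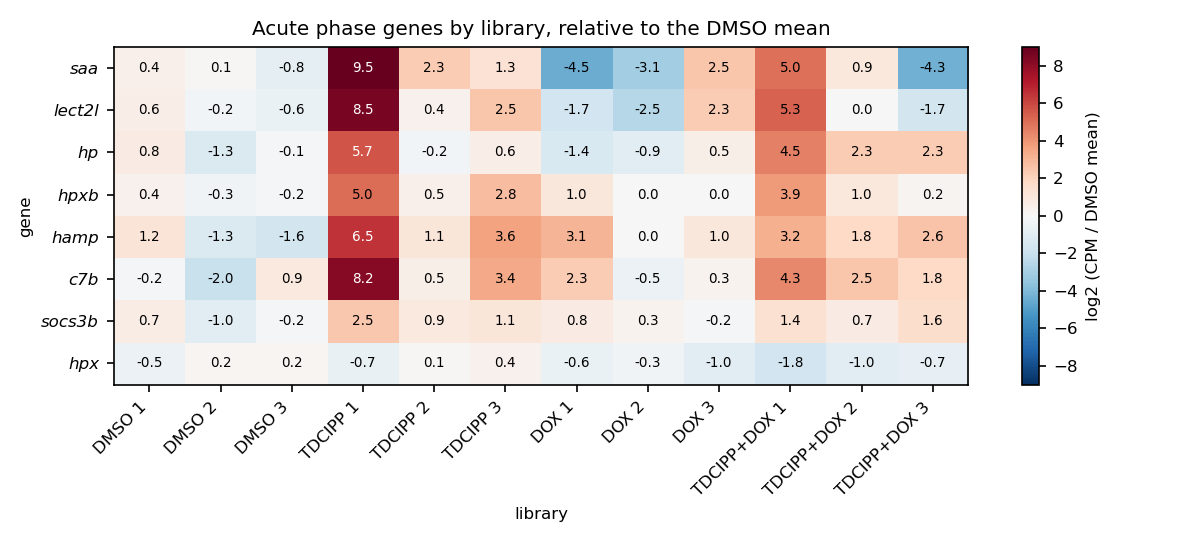
Level of 8 genes in each of the 12 libraries as log2 of CPM over the mean CPM of the 3 DMSO libraries. Red is above and blue below that mean, and the number in a cell is its value. The genes lect2l, c7b and socs3b were chosen for their high correlation with saa or hamp over these same libraries. The paralog hpxb was chosen after its values were seen. A peak in TDCIPP 1 that these genes share with saa, hp and hamp is therefore no added evidence. TDCIPP 1 is at 9.5 for saa and 5.7 for hp, TDCIPP+DOX 1 at 5.0 and 4.5, while hpx is at -0.7 and -1.8 in these libraries.

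Hepcidin, the peptide hormone that limits iron release, was low in control livers. The hamp level was 9.12, 1.60 and 1.30 CPM in DMSO, and 364, 8.43 and 48.7 CPM in TDCIPP. It was 34.0, 4.12 and 8.23 CPM in DOX, and 36.0, 14.2 and 23.5 CPM in TDCIPP+DOX. All 3 TDCIPP+DOX libraries were above all 3 DMSO libraries, while 2 DOX libraries and 1 TDCIPP library were below the highest DMSO library.

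For hamp, TDCIPP against DMSO gave a log2 fold change of 5.13 (SE 1.39, 35.0-fold, interval 2.07 to 8.18, edgeR adjusted p = 0.2396), and 2.83 (adjusted p = 0.5101) without TDCIPP 1. TDCIPP+DOX against DMSO gave 2.61 (SE 1.25, 6.13-fold, interval -0.13 to 5.36, edgeR adjusted p = 0.205), and DOX against DMSO gave 1.95 (SE 1.22, edgeR adjusted p = 0.3228). Against DOX, TDCIPP+DOX gave 0.67 (SE 1.17, adjusted p = 0.7499 by edgeR). The interaction of hamp was -4.46 (SE 1.73, interval -8.26 to -0.66), that is, a smaller difference between TDCIPP and its control with DOX than without it, with a p of 0.02533 before and 0.3766 after adjustment by edgeR. It was -2.55 (adjusted p = 0.5831) without TDCIPP 1 and TDCIPP+DOX 1, a pair of libraries chosen after their values were seen. In that fit edgeR called 0 of the 11 members in each comparison.

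Neutrophil transcripts varied between libraries. The 9 neutrophil marker rows summed to 23.4 to 34.5 CPM in DMSO, 65.6 to 149 CPM in TDCIPP, 11.1 to 14.1 CPM in DOX and 31.0 to 151 CPM in TDCIPP+DOX. Of the 7 tested rows edgeR called 0 for TDCIPP against DMSO and for DOX against DMSO, beside 0.0418% and 6.86% of all genes. It called 1, higher, for TDCIPP+DOX against DMSO and against DOX, beside 11.7% and 2.1% of all genes. The rows did not move as one. The defining marker mpx, the neutrophil peroxidase gene, was at 15.2, 27.5 and 1.34 CPM in DMSO, 3.16, 45.05 and 26.1 CPM in TDCIPP, 0.760, 0.146 and 0.766 CPM in DOX, and 77.8, 3.27 and 59.5 CPM in TDCIPP+DOX. In TDCIPP 1, the library with the highest saa, hp and hamp, mpx was thus below 2 of the 3 DMSO libraries, and most of the sum of 65.6 CPM came from cyba (25.7 CPM) and ncf1 (32.2 CPM), which encode parts of the phagocyte oxidase. The lysozyme gene lyz was at or near 0 in 11 libraries and at 4.05 CPM in TDCIPP 3. The part of neutrophils in the member levels was not tested.

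Ferroportin, the only known iron exporter of vertebrate cells and the target of hepcidin, is encoded by slc40a1. Its level was 79.9, 92.1 and 107 CPM in DMSO, and 135, 66.7 and 177 CPM in TDCIPP. It was 93.2, 161 and 35.0 CPM in DOX, and 245, 175 and 247 CPM in TDCIPP+DOX. The TDCIPP+DOX libraries lay above every DMSO and DOX library, and the lowest of them, at 175 CPM, just below the highest TDCIPP library.

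For slc40a1 the log2 fold change of TDCIPP+DOX against DMSO was 1.26 (SE 0.48, 2.40-fold, interval 0.21 to 2.31, edgeR adjusted p = 0.1132), and against DOX it was 1.21 (SE 0.48, 2.31-fold, edgeR adjusted p = 0.1608). Against TDCIPP it was 0.82 (SE 0.47, adjusted p = 0.4136 by edgeR). Leaving out each library in turn, the edgeR adjusted p against DMSO was below 0.05 in 1 of 12 fits. That was the fit without DOX 3, where slc40a1 was lowest (0.02774), and the highest value was 0.2609. When edgeR was fitted to the TDCIPP+DOX and DMSO libraries alone, slc40a1 was called (adjusted p = 0.01027). The authors' deposited table called slc40a1 higher in TDCIPP+DOX than in DMSO with an adjusted p of 0.025084, and also hamp with 0.02815, among the 1356 genes it called there. In its other 3 comparisons, with 66, 194 and 34 genes called, the authors' deposited table called 0 of the 11 members.

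Macrophages, which recycle iron from red cells, also express ferroportin. The 9 macrophage marker rows summed to 65.2 to 183 CPM in DMSO, 142 to 360.2 CPM in TDCIPP, 72.3 to 88.2 CPM in DOX and 122 to 243 CPM in TDCIPP+DOX, with mpeg1.1 above 0 in every library. Over the 12 libraries, the highest sum, in TDCIPP 3, came with a slc40a1 level of 177 CPM. The highest slc40a1 level, in TDCIPP+DOX 3, came with a sum of 122 CPM, and the lowest, in DOX 3, with 72.3 CPM. Every TDCIPP+DOX library was above every DOX library for both the sum and slc40a1. Between TDCIPP+DOX and DMSO the sums overlapped, while the slc40a1 levels did not. Of the 9 rows edgeR called 1, higher, for TDCIPP+DOX against DMSO and against DOX, beside 11.7% and 2.1% of all genes. The part of macrophages in the slc40a1 levels was not tested.

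Transferrin receptor 2 senses transferrin-bound iron on mammalian hepatocytes and acts upstream of hepcidin. The tfr2 level was 103, 62.7 and 113 CPM in DMSO, and 115, 70.5 and 98.5 CPM in TDCIPP. It was 99.4, 87.8 and 60.8 CPM in DOX, and 129, 151 and 154 CPM in TDCIPP+DOX. It was the only member whose TDCIPP+DOX libraries were all above the libraries of each of the other 3 groups, and those 3 groups overlapped. The share of all genes with this pattern was not computed. In single comparisons, 21.2% of all genes had every TDCIPP+DOX library above every DMSO library. The share was 13.5% against DOX and 14.7% against TDCIPP.

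For tfr2 the log2 fold change was 0.81 against DOX (SE 0.27, 1.75-fold, interval 0.21 to 1.41), with an edgeR adjusted p of 0.1198, the lowest of any member in that comparison. It was 0.64 against DMSO (SE 0.27, 1.56-fold, edgeR adjusted p = 0.1564) and 0.61 against TDCIPP (SE 0.27, 1.53-fold, edgeR adjusted p = 0.2673). In the 12 fits that each left out a library it stayed between 0.43 and 1.02 over these 3 comparisons. TDCIPP against DMSO gave 0.03 (SE 0.27, interval -0.57 to 0.63) and DOX against DMSO -0.17 (SE 0.27, interval -0.77 to 0.43), and the interaction was 0.78 (SE 0.39, edgeR adjusted p = 0.4014).

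Counted over the members, 4 had every TDCIPP+DOX library above every DMSO library (hamp, hp, slc40a1 and tfr2), where 21.2% of all genes did, and 1 had every library below (hpx), where 18% did. Against DOX, 4 had every library above (hp, slc40a1, tfr2 and msmbl), where 13.5% of all genes did, and 0 had every library below, where 13.6% did. Against TDCIPP, 3 had every library above (tfr1b, tfr2 and msmbl), where 14.7% did, and hpx alone had every library below, where 15.4% did. Between DOX and DMSO, msmbl alone had every DOX library below, where 12.3% of all genes did, and 0 had every library above, where 13.7% did. These comparisons share groups, so their counts are not independent of each other.

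**Figure D3:**
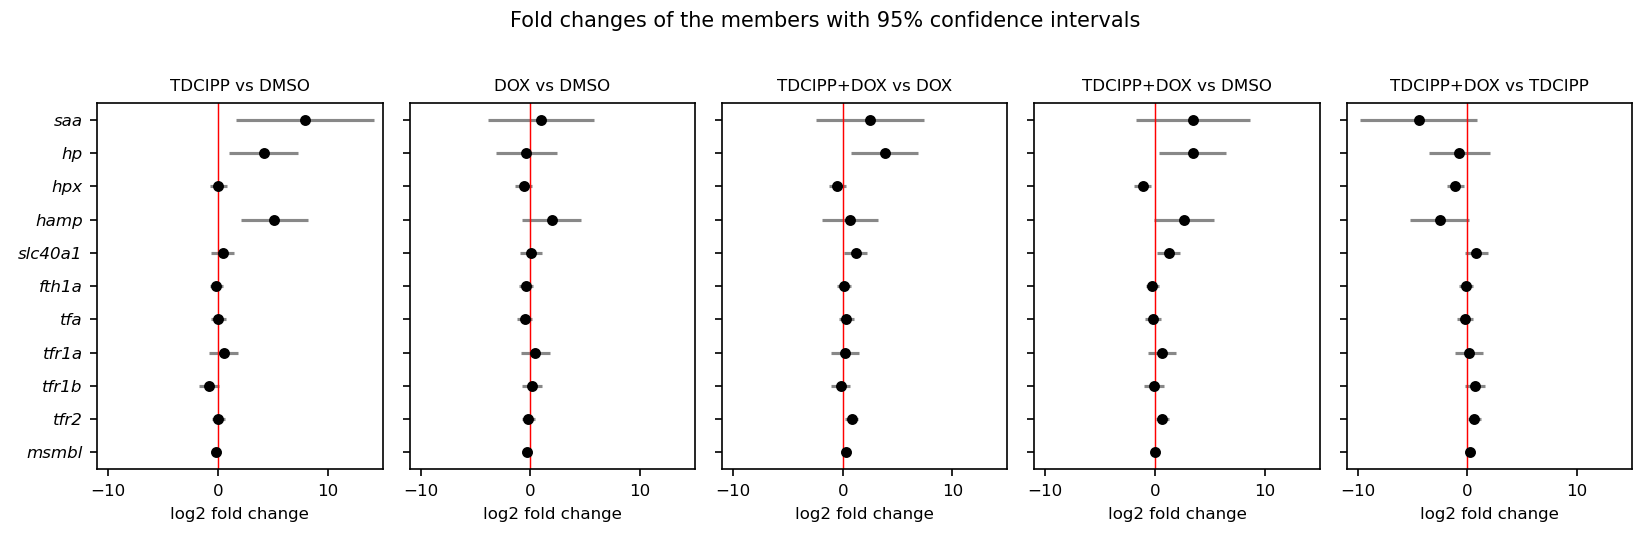
Log2 fold change of the 11 genes in the 5 comparisons between groups, with 95% confidence intervals from edgeR's model; the red line marks no difference. Intervals of saa, hp and hamp span several log2 units, while those of tfa, fth1a, tfr2 and msmbl are under 2 log2 units wide.

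The 2 copies of transferrin receptor 1 differed in level and pattern. In zebrafish, tfr1a is needed for iron uptake by developing red cells, and tfr1b is the copy with a broader role. The tfr1a level was 1.77, 0.776 and 2.24 CPM in DMSO, 1.90, 1.39 and 3.56 CPM in TDCIPP, 1.49, 1.496 and 3.61 CPM in DOX, and 3.19, 3.13 and 1.12 CPM in TDCIPP+DOX. These rested on 16 to 176 reads per library, and the groups overlapped in every comparison. Its log2 fold changes between groups ran from 0.12 to 0.63, each with an SE of 0.58 or 0.59 and an edgeR adjusted p of 0.5417 or more.

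The tfr1b level was 31.6, 103 and 49.8 CPM in DMSO, and 31.8, 35.2 and 39.2 CPM in TDCIPP. It was 46.2, 108 and 47.0 CPM in DOX, and 59.197, 61.6 and 54.2 CPM in TDCIPP+DOX. The 3 TDCIPP and the 3 TDCIPP+DOX libraries each lay close together, with a coefficient of variation of 10.4% and 6.48%, while DMSO and DOX, at 60.2% and 52.8%, each held a library far above the other two, at 103 and 108 CPM.

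For tfr1b, every TDCIPP+DOX library was above every TDCIPP library, with a log2 fold change of 0.72 (SE 0.42, 1.65-fold, interval -0.19 to 1.64, edgeR adjusted p = 0.4143). TDCIPP against DMSO gave -0.79 (SE 0.42, interval -1.71 to 0.12, adjusted p = 0.558 by edgeR) with overlapping groups. When edgeR was fitted to the 6 libraries of TDCIPP+DOX and TDCIPP alone, tfr1b was called between them (adjusted p = 0.04074). DOX against DMSO gave 0.13 (SE 0.41, edgeR adjusted p = 0.8728).

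Transferrin was by far the most abundant member. The tfa level was 52850.4, 48127 and 43632 CPM in DMSO, and 56975, 44012.5 and 46995 CPM in TDCIPP. It was 36561, 44014.5 and 20318 CPM in DOX, and 45999, 42516 and 39719 CPM in TDCIPP+DOX. Only DOX 3 was far from the rest, and the groups overlapped in all 5 comparisons. The log2 fold change was 0.03 for TDCIPP against DMSO (SE 0.32, interval -0.68 to 0.74, edgeR adjusted p = 0.9799) and -0.52 for DOX against DMSO (SE 0.32, interval -1.23 to 0.19, edgeR adjusted p = 0.3199).

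For TDCIPP+DOX against DMSO, tfa had a log2 fold change of -0.17 (SE 0.32, interval -0.88 to 0.54, edgeR adjusted p = 0.7939). This value depended on the scaling. With library totals in place of TMM it was 0.84 (edgeR adjusted p = 0.004995). In that scaling the median log2 fold change over all tested genes in this comparison was 1.11, against 0.10 with TMM, so tfa was below the median gene under both scalings.

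Ferritin heavy chain, the iron storage subunit encoded by fth1a, stood at 204, 451 and 288 CPM in DMSO, and at 309, 284 and 267 CPM in TDCIPP. It stood at 193, 288 and 243 CPM in DOX, and at 321, 249 and 221 CPM in TDCIPP+DOX. Both the lowest library, DOX 1, and the highest, DMSO 2, came from groups without TDCIPP, and the groups overlapped in all 5 comparisons. The log2 fold changes ran from -0.38 (DOX against DMSO, SE 0.28, interval -0.998 to 0.24) to 0.13 (TDCIPP+DOX against DOX, SE 0.28, interval -0.49 to 0.74), with edgeR adjusted p-values of 0.4032 or more.

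The fth1a gene and its neighbour saa differed in how far they varied. Over the 12 libraries the highest saa level was 16021 times the lowest, and the highest fth1a level 2.33 times the lowest. TDCIPP 1, the library with the highest saa, was the third highest for fth1a.

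The msmbl row, which shares the name hp but not the domain, did not move with haptoglobin. Its level was 273, 261 and 251 CPM in DMSO, 235, 213 and 252 CPM in TDCIPP, 244, 247 and 149.8 CPM in DOX, and 282, 259 and 263 CPM in TDCIPP+DOX. It spanned 1.88-fold over the 12 libraries, where hp spanned 136-fold. The log2 fold change for TDCIPP+DOX against DOX was 0.33 (SE 0.20, interval -0.12 to 0.77, edgeR adjusted p = 0.3296), with all 3 libraries higher.

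The spread between libraries set these genes apart. The biological coefficient of variation in edgeR's fit was 155% for saa, 97.9% for hp and 92.5% for hamp, against a median of 42.4% over all tested genes. It was 52.6% for tfr1a, 42.7% for slc40a1, 38.7% for tfr1b and 33.7% for hpx. The lowest values were 29.1% for fth1a, 28.7% for tfr2, 26.9% for tfa and 24.1% for msmbl.

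Levels between genes can be compared only per length, for which the authors' deposited FPKM values (fragments per kilobase of transcript, scaled to library size) were used. For tfr1b, tfr2, slc40a1 and msmbl these equal counts over the gene length in the table, in all 12 libraries. For the other 7 members they rest on another length, which is not stated. The median over the 12 libraries was 17819.9 FPKM for tfa, then 400.0 for hpx, 366 for msmbl, 333 for fth1a and 81.2 for hp. It was 40.4 FPKM for tfr2, 27.8 for slc40a1, 24.0 for hamp, 18.8 for tfr1b, 9.03 for saa and 0.574 for tfr1a. Between hpx, msmbl and fth1a the ranges overlapped, at 235 to 733, 255 to 651 and 193 to 573 FPKM. With the length in the table the medians were 8439 FPKM for tfa, 366 for msmbl, 249 for fth1a, 206 for hpx and 45.01 for hp, so the order of hpx, msmbl and fth1a depends on the length used. The order of the other members was the same with either length. By deposited FPKM, tfa ranked between 1 and 6 among all genes in every library. The saa gene ranked 37 in TDCIPP 1 and 16945 in TDCIPP+DOX 3. Of the 3 receptors, tfr2 was above tfr1b in all groups, with 27.6 ± 8.10 against 13.7 ± 8.06 FPKM in DMSO and 87.2 ± 6.36 against 26.7 ± 1.84 FPKM in TDCIPP+DOX (SD, n = 3). In DMSO 2, however, tfr1b at 22.9 FPKM was above tfr2 at 18.4 FPKM. FPKM is scaled to all reads and not by TMM, so differences between groups were not read from it.

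Across the 12 libraries, which share groups and the library TDCIPP 1, the members fell into sets by the Pearson r of log2 CPM, given as a description. The r was 0.729 between saa and hp, 0.721 between hamp and hp, and 0.534 between saa and hamp. It was 0.788 between slc40a1 and tfr2, 0.767 between slc40a1 and msmbl, and 0.815 between tfa and msmbl. All 4 of these genes were lowest in DOX 3. The r between hpx and hp was -0.608, and between hamp and tfr1b -0.538. Of hamp and slc40a1, hormone and target, the r was 0.338.

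Among 7467 named genes with a mean of at least 5 CPM, the gene most like saa was lect2l (r = 0.953), followed by snap23.2 (0.887) and znrf2a (0.855). The lect2l gene, related to a leukocyte chemotaxis factor of the liver, stood at 1637 CPM in TDCIPP 1 and 178 CPM in TDCIPP+DOX 1, and at most 25.5 CPM elsewhere. Most like hamp were cyp3c1 (0.911), the complement gene c7b (0.898) and socs3b (0.897), an inhibitor of cytokine signalling. The c7b level was 2264 CPM in TDCIPP 1, 157 CPM in TDCIPP+DOX 1 and 1.94 to 83.8 CPM elsewhere. Most like hp were rab7 (0.902), sdcbp2 (0.889) and sdc4 (0.886).

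Most like tfr2 were stat1a (0.935), fhdc5 (0.934) and nid2a (0.914), and most like slc40a1 were ifi35 (0.911), ostf1 (0.89) and irf9 (0.879). The stat1a level was 53.9, 54.6 and 63.2 CPM in TDCIPP+DOX and 20.0 to 42.1 CPM in the other 9 libraries. Most like hpx were tmed1a (0.912), rbp2a (0.906) and pbrm1l (0.891). The rbp2a gene, for a cellular retinol binding protein, stood at 848 to 1320 CPM in DMSO, 607 to 985 CPM in TDCIPP, 262 to 456 CPM in DOX and 162 to 331 CPM in TDCIPP+DOX, so that the groups with DOX overlapped each other and lay below the other two. For tfa the closest were ankrd46a (0.908), oaz2a (0.891) and aspdh (0.889), and for msmbl bckdhbl (0.933), f2 (0.91) and pkp3b (0.902). For tfr1a they were f13a1b (0.899), tpp1 (0.811) and swap70b (0.794), for tfr1b adob (0.859), pfn2l (0.824) and mapre3b (0.814), and for fth1a plgrkt (0.791), tomm6 (0.733) and supt5h (0.72).

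Other genes of the same pathways passed the test in comparisons that include a group with DOX. Of 104 tested genes in 6 lists (hepcidin regulators, iron uptake and export, iron storage and sensing, haem and iron-sulphur synthesis, acute phase proteins, acute phase signalling), edgeR called 0 for TDCIPP against DMSO, 4 for DOX against DMSO and 3 for TDCIPP+DOX against DOX. It called 10 for TDCIPP+DOX against DMSO, 9 for TDCIPP+DOX against TDCIPP and 0 for the interaction. As shares of the 104 genes these were 3.85%, 2.88%, 9.62% and 8.65% for the 4 comparisons with calls, beside 6.86%, 2.1%, 11.7% and 4.18% of all genes. Without adjustment, edgeR gave a p below 0.05 to 22 of the 104 for TDCIPP against DMSO (10% of all genes), 34 for DOX against DMSO (26.6%), 24 for TDCIPP+DOX against DOX (24.4%), 40 for TDCIPP+DOX against DMSO (27.1%), 28 for TDCIPP+DOX against TDCIPP (17.9%) and 13 for the interaction (12.8%). DESeq2 called 6 of the 104 for TDCIPP against DMSO and 1 for the interaction, beside 2.19% and 1.48% of all genes.

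Of the 4 genes called in DOX against DMSO, 2 encode enzymes of haem synthesis. Of 22 tested genes of the haem and iron-sulphur list, 2 rose and 0 fell in DOX against DMSO, a share of 9.09% beside 6.86% of all genes, with a median log2 fold change of 0.48 in the list and 0.12 over all genes. The cpox gene, for coproporphyrinogen oxidase, was at 10.3, 13.0 and 7.66 CPM in DMSO and at 34.2, 47.1 and 39.2 CPM in DOX, a log2 rise of 1.96 (SE 0.26, 3.88-fold, edgeR adjusted p = 0.005616). It also rose by 1.45 in TDCIPP+DOX against DMSO (SE 0.26, edgeR adjusted p = 0.005083), with 25.7, 26.4 and 32.7 CPM, and both calls held when any library was left out. The alas1 gene, for the first enzyme of haem synthesis, rose by 0.96 in DOX against DMSO (SE 0.19, 1.95-fold, edgeR adjusted p = 0.01873), a call that was lost without DMSO 1 or DMSO 3. The call was also lost without the 4 libraries that carry ovary or intestine transcripts (edgeR adjusted p = 0.06717). The alas1 level was 54.1, 75.4 and 60.0 CPM in DMSO and 109, 137 and 124 CPM in DOX.

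Among 14 tested hepcidin regulators, 2 rose and 1 fell in TDCIPP+DOX against DMSO, a share of 21.4% beside 11.7% of all genes, with a median log2 fold change of 0.12 in the list and 0.10 over all genes. The id1 gene, a direct target of bone morphogenetic protein signalling, was at 1.41, 0.921 and 1.84 CPM in DMSO and at 12.8, 7.53 and 15.8 CPM in TDCIPP+DOX, with no overlap. It rose by 3.11 (SE 0.50, 8.62-fold, edgeR adjusted p = 0.00367), and in DOX against DMSO by 2.04 (SE 0.48, edgeR adjusted p = 0.03316), the latter in 6 of 12 fits without a library. The ligand gene bmp2b rose from 0.318, 0.339 and 0.762 CPM in DMSO to 4.78, 7.34 and 16.3 CPM (log2 fold change 4.31, SE 0.83, edgeR adjusted p = 0.007749). The ligand bmp6, which carries the iron signal to hepcidin in mice, was at 1.02 to 2.78 CPM in DMSO and 2.13 to 3.45 CPM in TDCIPP+DOX, and did not pass. The gene atoh8, for a transcription factor that acts on the hepcidin promoter in mammals, fell by 1.75 (SE 0.51, edgeR adjusted p = 0.04814), a call held in 3 of 12 fits.

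Of 9 tested genes of iron storage and sensing, ncoa4, the receptor that delivers ferritin to autophagy, alone was called in TDCIPP+DOX against DMSO and fell, a share of 11.1% beside 11.7% of all genes. It was at 65.7, 107 and 151 CPM in DMSO and at 30.4, 50.9 and 31.7 CPM in TDCIPP+DOX, a log2 fold change of -1.52 (SE 0.35, edgeR adjusted p = 0.01742). The ncoa4 level was also below every DMSO library in all TDCIPP (37.2 to 57.7 CPM) and all DOX libraries (36.2 to 60.5 CPM). Of 15 tested genes of iron uptake and export, 2 fell in TDCIPP+DOX against DMSO, a share of 13.3%. These were slc25a28, a mitochondrial iron importer, at -1.67 (SE 0.28, edgeR adjusted p = 0.004131), and slc11a2, the importer DMT1, at -1.03 (SE 0.27, edgeR adjusted p = 0.03127). The slc11a2 level was 68.3, 67.1 and 71.1 CPM in DMSO and 31.9, 33.9 and 35.3 CPM in TDCIPP+DOX. It was 34.1 to 57.4 CPM in TDCIPP and 31.2 to 64.4 CPM in DOX, also below every DMSO library. With library totals in place of TMM, these 3 falls and that of atoh8 were not called, with adjusted p-values of 0.07147 to 0.9727. The slc25a28 call held without any library, whereas the ncoa4 call held in 8 of 12 fits and the slc11a2 call in 5. Without the 4 libraries that carry ovary or intestine transcripts, ncoa4 and atoh8 were not called in TDCIPP+DOX against DMSO (edgeR adjusted p = 0.1114 and 0.07206).

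In DOX against DMSO the iron sensor fbxl5, whose product marks an iron regulatory protein for degradation, rose by 0.74 (SE 0.18, 1.67-fold, edgeR adjusted p = 0.03568). It was at 15.6, 16.7 and 21.0 CPM in DMSO and at 28.64, 29.2 and 31.3 CPM in DOX, and was called in 1 of 12 fits without a library. In TDCIPP+DOX against DOX, hephl1a, a copper oxidase gene related to hephaestin, rose by 1.12 (SE 0.22, edgeR adjusted p = 0.04162), a call held in 3 of 12 fits. It was not called without the 4 libraries that carry ovary or intestine transcripts (edgeR adjusted p = 0.1043).

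**Figure D4:**
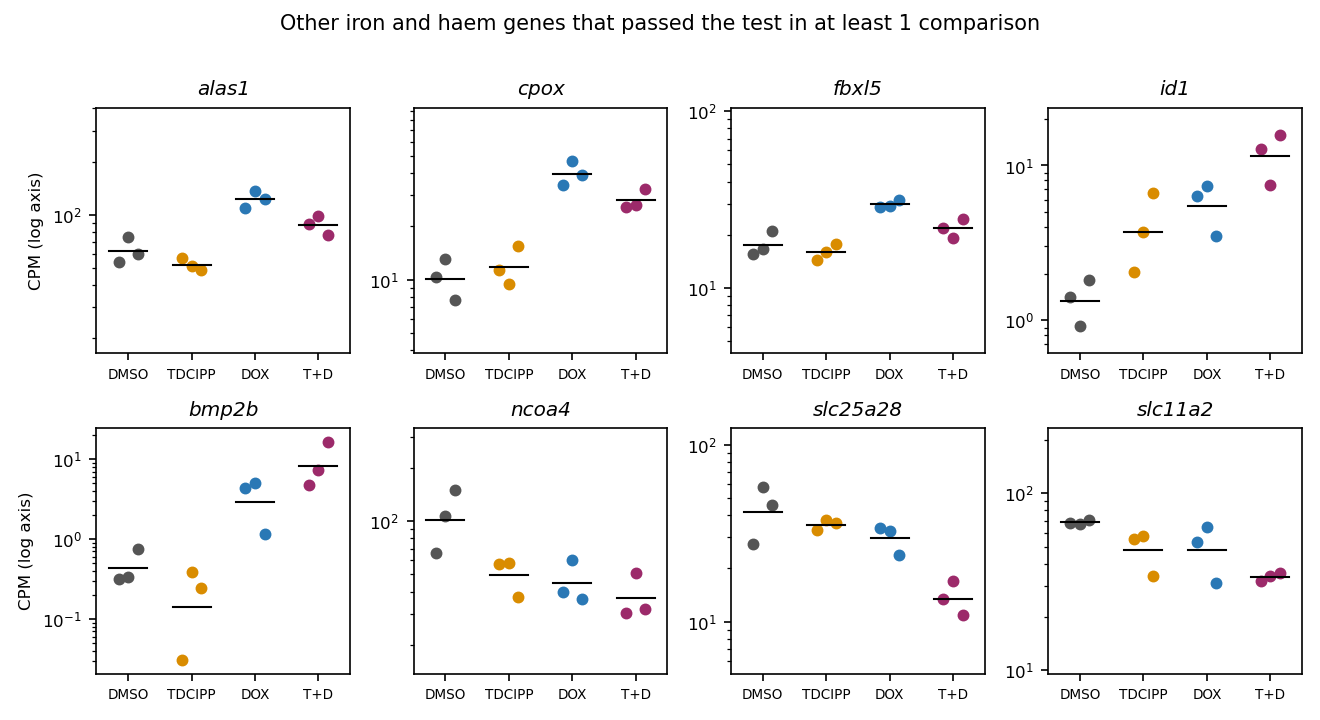
Level of 8 other iron and haem genes that edgeR called in at least 1 comparison, in TMM-scaled CPM on a log axis; points are libraries, black bars the geometric mean of 3, and T+D is TDCIPP+DOX. The cpox points in DOX lie between 34.2 and 47.1 CPM, above all DMSO points, and the slc11a2 points in TDCIPP+DOX between 31.9 and 35.3 CPM, below all DMSO points.

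Of 29 tested acute phase proteins, 3 rose and 0 fell in TDCIPP+DOX against DMSO, a share of 10.3% beside 11.7% of all genes, with a median log2 fold change of 0.53 in the list and 0.10 over all genes. The ttr gene, for the thyroid hormone carrier transthyretin, whose plasma level falls in the human acute phase, was at 68.5, 42.8 and 60.0 CPM in DMSO and at 193, 136 and 202 CPM in TDCIPP+DOX. Its rise was 1.63 (SE 0.28, 3.10-fold, edgeR adjusted p = 0.004825) and held without any library. The serpin gene serpina1l, related to alpha-1 antitrypsin, rose by 1.93 (SE 0.44, edgeR adjusted p = 0.01703) and itih3a, for a hyaluronan-linked inhibitor chain, by 1.33 (SE 0.35, edgeR adjusted p = 0.0328), calls held in 9 and 5 of 12 fits. Against TDCIPP, serpina1l (2.51, SE 0.45, edgeR adjusted p = 0.01493), ttr (1.4998, SE 0.28, edgeR adjusted p = 0.01776) and itih3b (1.48, SE 0.33, edgeR adjusted p = 0.02966) rose, calls held in 9, 8 and 6 of 12 fits. These genes did not share the TDCIPP 1 pattern of saa: serpina1l stood at 1784 CPM in TDCIPP 1, its lowest library, and ttr at 63.6 CPM. In DOX, ttr was at 140, 123 and 69.0 CPM, also above every DMSO library. The serpina1l level was 15728, 13243 and 5476 CPM in DOX and 3193 to 6023 CPM in DMSO, with overlap.

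Of 15 tested genes of acute phase signalling, 2 rose in TDCIPP+DOX against DOX, a share of 13.3% beside 2.1% of all genes. The cytokine gene il1b was at 0.0585, 0.182 and 0.613 CPM in DOX and at 8.70, 4.07 and 1.21 CPM in TDCIPP+DOX (log2 fold change 3.97, SE 0.89, edgeR adjusted p = 0.04854). The gene nfkbiaa, for an inhibitor of NF-kappaB, rose by 2.01 (SE 0.45, edgeR adjusted p = 0.04854), from 2.15 to 3.47 CPM in DOX to 7.85 to 14.1 CPM in TDCIPP+DOX. In DMSO nfkbiaa was at 3.88 to 13.0 CPM and il1b at 0.485 to 1.77 CPM, so TDCIPP+DOX overlapped DMSO for both genes. In TDCIPP they were at 19.8 to 47.3 CPM and 3.95 to 5.61 CPM. The il1b and nfkbiaa calls held in 2 and 1 of 12 fits. Without the 4 libraries that carry ovary or intestine transcripts, nfkbiaa was not called (edgeR adjusted p = 0.1309). Leukocyte marker sums were also higher in TDCIPP+DOX than in DOX. The neutrophil sum was 11.1 to 14.1 CPM in DOX and 31.0 to 151 CPM in TDCIPP+DOX, and the sum of 9 macrophage marker rows was 72.3 to 88.2 CPM and 122 to 243 CPM. Of these 9 rows edgeR called 1, higher, beside 2.1% of all genes. The macrophage rows did not move as one: csf1ra was at 8.54 to 14.5 CPM in DOX and 7.95 to 17.6 CPM in TDCIPP+DOX. The part of leukocytes in the il1b and nfkbiaa rises was not tested. In TDCIPP+DOX against TDCIPP, 1 of the 15 was called, a share of 6.67% beside 4.18% of all genes. This was cebpa, a hepatocyte transcription factor gene, which rose by 1.78 (SE 0.29, edgeR adjusted p = 0.009666). It was at 30.0, 29.0 and 30.7 CPM in TDCIPP and at 79.4, 129 and 101 CPM in TDCIPP+DOX. In DMSO cebpa was at 70.4, 89.5 and 53.8 CPM, above every TDCIPP library and overlapping TDCIPP+DOX. Of the other lists, cpox (1.22, SE 0.25, edgeR adjusted p = 0.02403), alas1 (0.75, SE 0.19, edgeR adjusted p = 0.04605) and bmp2b (5.43, SE 0.87, edgeR adjusted p = 0.009666) rose in TDCIPP+DOX against TDCIPP. In that comparison atoh8 (-2.17, SE 0.51, edgeR adjusted p = 0.03886) and slc25a28 (-1.37, SE 0.28, edgeR adjusted p = 0.02224) fell. With library totals in place of TMM, neither fall was called (edgeR adjusted p = 0.05599 for atoh8 and 0.08446 for slc25a28). The bmp2b level in TDCIPP was 0.0306, 0.381 and 0.244 CPM, near the floor, so the size of its rise is uncertain. The calls of cebpa and bmp2b held in 11 of 12 fits, those of slc25a28 and cpox in 8 and 7, and those of alas1 and atoh8 in 2. Without the 4 libraries that carry ovary or intestine transcripts, slc25a28, cpox and alas1 were not called against TDCIPP (edgeR adjusted p = 0.07408, 0.07632 and 0.0672).

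TDCIPP 1 was the highest library for 7 of 15 acute phase signalling genes and 6 of 29 acute phase proteins, and for 6.81% of all tested genes. DMSO 1 and TDCIPP+DOX 3 were each highest for 6 of the 29 acute phase proteins too. The reductase gene steap4 of the iron uptake list stood at 6159.9 CPM in TDCIPP 1, 531 CPM in TDCIPP+DOX 1 and 32.7 to 322 CPM elsewhere. Ceruloplasmin, the plasma copper oxidase encoded by cp, was at 6875 CPM in TDCIPP 1, 5449.8 CPM in TDCIPP 3 and 1536 to 3521 CPM elsewhere. Of the acute phase list, crp and apcs peaked in other libraries. The crp level was 14.2 to 211 CPM in DMSO and 13.7 to 576 CPM in TDCIPP. It was 319 to 2391 CPM in DOX and 1047 to 2186 CPM in TDCIPP+DOX. Every DOX and TDCIPP+DOX library was thus above every DMSO library for crp, which edgeR called in neither comparison. Of all genes, 13.7% had every DOX library and 21.2% every TDCIPP+DOX library above every DMSO library. The apcs level was highest in TDCIPP 3, at 2435 CPM.

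Free haemoglobin and red cells are the source of what haptoglobin and hemopexin bind. The 11 erythrocyte marker rows summed to 344 to 748 CPM in DMSO, 402 to 1112 CPM in TDCIPP, 74.3 to 234 CPM in DOX and 156 to 764 CPM in TDCIPP+DOX, with the haemoglobin gene hbaa1 above 0 in every library. In TDCIPP 1, where hp was highest, the sum was 402 CPM, and in DOX all 3 libraries were below every DMSO and TDCIPP library. The part of red cells in the hp, hpx and tfr1a levels was not tested.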

How the data were processed

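Liver RNA was sequenced in 12 libraries, 3 in each of 4 groups. The labels' protocols give Trizol for the RNA and a NEBNext Ultra kit for the libraries. The authors deposited 1 table, with raw counts of reads per gene and FPKM values. For 4 of their own comparisons, the deposited table adds an adjusted p-value and a call for each gene, made with an unnamed tool. HISAT aligned the reads, per the submitters' processing notes; its version, the counter, its use of strand, the build and the annotation were not given in the sources used here. For 45.6% of the genes with reads in DMSO 1, the FPKM values of that library equal counts over the table's length column, so another length was used for the rest. Headers matched each of the 12 count columns to its library, with 0 left over.

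The counts went into edgeR 4.0.16 under R 4.3.3: quasi-likelihood test, TMM scaling, default filter on low counts by group, 1 mean for each group and no replicate block, which leaves 8 residual degrees of freedom. After the filter 19160 genes remained. Tests were 2-sided for 5 comparisons between groups and for the interaction, adjusted by Benjamini-Hochberg over all genes, with 0.05 as the threshold. An adjusted p is edgeR's unless DESeq2 (1.42.0) or the authors' deposited table is named. CPM values are scaled by TMM, and log2 CPM for r uses a prior count of 2. The fits were checked on simulated counts.

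Libraries held 28621536 to 40877342 reads, so that tfr1a rests on 16 to 176 reads in each. The members, the lists and the marker genes were chosen with earlier results of these data known. Of 123 entries in the 6 pathway lists, 110 matched the table. Named are all members, from each list up to 4 genes with the lowest adjusted p below 0.05 in a comparison, and the 3 named genes most like each member. The hemopexin paralog, steap4, cp, crp, apcs, bmp6 and hmox1a fall outside that rule and were chosen after their values were seen.

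The alternatives changed the size factors (DESeq2's, or library totals), the filter (none), the tool (DESeq2), the libraries in the fit (only the groups compared, or each library left out), or added the replicate number as a block. A further fit left out DMSO 3, TDCIPP 1, DOX 3 and TDCIPP+DOX 3, which carry ovary or intestine transcripts. A fit without TDCIPP 1 and TDCIPP+DOX 1 was chosen after seeing the data. No batch, date or sex is labelled, so none was fitted. No sequences are shown.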

Additional observations from a re-analysis of the deposited data

How the results depend on the processing

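Of the 11 members edgeR called 0 in each comparison, and these counts were also 0 with DESeq2 size factors, with no low count filter and without TDCIPP 1 and TDCIPP+DOX 1 together. For TDCIPP+DOX against DMSO the count was 5 with library totals (tfa, hp, msmbl, slc40a1 and tfr2) and 1 with DESeq2 (hpx). It was 2 with only the groups compared (hp at an edgeR adjusted p of 0.0305 and slc40a1 at 0.01027). It was 1 without the 4 libraries that carry ovary or intestine transcripts (hp, 0.03282), and 0 to 2 when each library was left out. The 2 came without DOX 3 (hpx and slc40a1), and hp alone was called without TDCIPP 1. For TDCIPP+DOX against TDCIPP it was 4 with library totals, and 1 each with DESeq2, with only the groups compared and without the 4 libraries. For TDCIPP against DMSO it was 1 with DESeq2. The cause of these shifts was not tested, beside what the scaling itself does. With library totals the median gene of TDCIPP+DOX against DMSO lay at a log2 fold change of 1.11 in place of 0.10. The same medians were 0.39 in place of 0.02 (TDCIPP against DMSO), 0.83 in place of 0.12 (DOX against DMSO), 0.23 in place of -0.08 (TDCIPP+DOX against DOX) and 0.64 in place of -0.01 (TDCIPP+DOX against TDCIPP). The value of tfa in TDCIPP+DOX against DMSO reversed with library totals (0.84).

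With the replicate number as a block, 2 members were called in TDCIPP+DOX against DMSO, hamp (edgeR adjusted p = 0.01731) and hpx (0.03744), and no other call of a member changed. The labels do not say what a shared number means. Deviations from the group means of same-numbered libraries had an r of -0.225 to 0.182, with a median of 0.0101 over 18 pairs. For libraries with different numbers the r was -0.229 to 0.242, with a median of -0.008 over 36 pairs. Correlations over all genes cannot tell whether the numbers pair the samples.

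Of the 104 other pathway genes, 10 were called in TDCIPP+DOX against DMSO, and 26 with DESeq2, 54 with library totals, 24 with only the groups compared and 5 to 21 when a library was left out. For DOX against DMSO, 4 became 17 with DESeq2, 37 with library totals and 1 with only the groups compared. For TDCIPP+DOX against TDCIPP, 9 became 17, 26 and 10, and 0 without TDCIPP 1 and TDCIPP+DOX 1. For TDCIPP+DOX against DOX, 3 became 13 with DESeq2, 2 with library totals and 0 with only the groups compared or with no low count filter. Depth limits tfr1a and the lowest saa values most.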

Other observations

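The levels of 2 ferritin-like genes outside the lists are given as a description, with no test, since they were chosen after their values were seen. The row zgc:172145 (bases 31424850 to 31433512 of chromosome 25) was at 3.04, 2.13 and 2.60 CPM in DMSO and at 1.35, 1.77 and 3.10 CPM in TDCIPP. It was at 7.63, 9.56 and 3.81 CPM in DOX and at 10.4, 7.30 and 8.88 CPM in TDCIPP+DOX, so every library with DOX was above every library without it. Of all genes, 13.7% had every DOX library above every DMSO library, and 14.7% had every TDCIPP+DOX library above every TDCIPP library. The share with every library with DOX above every library without it was not computed. The row zgc:56095 (bases 7741521 to 7746478 of chromosome 24) was at 11.3, 14.2 and 14.2 CPM in DMSO, 21.6, 18.1 and 17.0 CPM in TDCIPP, 18.5, 20.4 and 50.6 CPM in DOX, and 23.6, 22.1 and 28.2 CPM in TDCIPP+DOX. All 9 libraries of the other groups were above the 3 DMSO libraries. Of all genes, 10.4% had every TDCIPP library, 13.7% every DOX library and 21.2% every TDCIPP+DOX library above every DMSO library. The share with all of these at once was not computed.

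Haem oxygenase 1, the enzyme that frees iron from haem, was at 9.26 to 16.1 CPM in DMSO, 5.69 to 28.7 CPM in TDCIPP, 3.26 to 7.84 CPM in DOX and 3.88 to 22.5 CPM in TDCIPP+DOX for its gene hmox1a. All 3 DOX libraries were below all 3 DMSO libraries, as for 12.3% of all genes, and the gene was not called by edgeR in any comparison.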
